A study of Gallus gallus with 6 samples.

Results

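Sonic hedgehog (SHH), its receptor Patched 1 (PTCH1) and the transcription factors GLI1, GLI2 and GLI3 were followed across every library of a single-cell RNA series of chicken embryos. These 5 genes were chosen by name, as the secreted ligand, the receptor and the 3 factors that carry the signal to the nucleus, out of 16828 genes counted. They were counted under the identifiers ENSGALG00000006379 (SHH), ENSGALG00000012620 (PTCH1), ENSGALG00000042422 (GLI1), ENSGALG00000011630 (GLI2) and ENSGALG00000040266 (GLI3). The study sampled embryonic tissues in which cells of different origin start to build the skeleton. Nasal libraries came from the frontonasal prominence of the face, where skeletal precursors descend from the neural crest, at the Hamburger-Hamilton (HH) stages 15, 18 and 22. Somite libraries came from the dorsal part of the brachial trunk, where they descend from the somitic mesoderm, at HH12, HH15 and HH20. All embryos were untreated chickens of the Hubbard type and of both sexes, and each stage is 1 library.

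SHH binds PTCH1, which otherwise holds the transducer Smoothened (SMO) silent. GLI factors then change from repressors to activators, with GLI2 known mainly as an activator and GLI3 mainly as a repressor, while GLI1 and PTCH1 are themselves switched on by the pathway and serve as its classical readouts. In the trunk, SHH from notochord and floor plate induces the ventral somite to form sclerotome, the source of vertebral cartilage, which expresses PAX1 and NKX3-2. In the face, SHH from the ventral forebrain and the facial ectoderm is known to shape the outgrowth of the frontonasal prominence.

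The 6 libraries held 17268 barcodes with 7702531 to 16725073 unique molecular identifiers (UMIs, counted RNA molecules) each, and 16306 cells were kept, 8508 nasal and 7798 somite, with a median of 2233 to 3444.5 UMIs per cell. Red blood cell RNA differed strongly between libraries, from 0.0322% of UMIs in somite HH12 to 20.2% in nasal HH22. Levels are therefore given as counts per 1000000 non-globin UMIs of the same cells (CPM), with exact Poisson 95% intervals where a single library is described, which cover counting error only. Any pair of libraries shared 2 to 22 barcode sequences. With 1 library per stage, a difference between stages has no replicate and was not tested. The 3 libraries of a location stand in for replicates, so that every SD below has stage within its spread. The same holds for p-values between locations. Lack of overlap between libraries, or the same direction in 3 of 3, is given as description only. The share of all genes that behave so is not given, so these statements add no weight to a member that was not called. Fits inside 1 location include a library term, which takes out stage differences shared by both groups. Their p-values rest on counting error and on how the difference between groups varies over the libraries. That spread is estimated in part over all genes. A gene higher in only 1 library, such as CHRD below, can thus be called.

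All 5 members were sparsely counted. SHH gave 877 UMIs in 352 cells, PTCH1 873 UMIs in 759 cells, GLI1 282 UMIs in 269 cells, GLI2 1421 UMIs in 1267 cells and GLI3 3467 UMIs in 2735 cells. The ligand differed from the receptor in how its molecules were spread over cells. Of the PTCH1 cells 88.3% and of the GLI1 cells 95.2% held a single UMI, with at most 4 and 2 UMIs in any cell. Of the SHH cells 59.7% held a single UMI, yet 95 cells held 3 or more and up to 15. Those 95 cells carried 59.4% to 83.7% of the SHH UMIs of their library.

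Over all kept cells, the ligand was at 21.2, 15.3 and 20.3 CPM in nasal HH15, HH18 and HH22 and at 16.0, 12.1 and 15.5 CPM in somite HH12, HH15 and HH20. SHH was found in 2.07% to 2.64% of nasal and 1.46% to 2.62% of somite cells, and the levels of both locations overlapped. PTCH1, the receptor, was at 10.2, 10.6 and 7.22 CPM in the nasal and at 29.6, 19.0 and 17.9 CPM in the somite libraries. Every somite library was thus above every nasal one, with 4.49% to 8.83% against 2.59% to 3.31% of cells with a PTCH1 UMI. GLI1 was at 2.97, 2.59 and 6.05 CPM in the nasal and at 10.3, 4.55 and 5.91 CPM in the somite libraries, with overlap. GLI2 was at 21.1, 28.7 and 28.5 CPM in the nasal and at 34.5, 20.7 and 20.1 CPM in the somite libraries, again with overlap. GLI3 went the other way from PTCH1, with 65.0, 86.7 and 83.9 CPM in the nasal and 46.8, 46.5 and 52.0 CPM in the somite libraries, so that every nasal library was above every somite one. Mixtures of cell types differ between locations and stages, so that more cells with a transcript and more transcript per cell were looked at separately below.

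Blood cells, which should lack all 5 genes, gave the background of free RNA. An SHH UMI was in 0, 2 and 1 of 26, 101 and 153 nasal blood cells and in 0, 1 and 2 of 1, 35 and 102 somite blood cells, at most 2.86% of a library's blood cells against 1.45% to 2.67% of the other cells. PTCH1 was in at most 5.71% of blood cells against 2.84% to 8.83% of the others, and GLI3 in at most 4.95% against 11.3% to 25.4%. At somite HH15 the shares of SHH and PTCH1 among blood cells, from 1 and 2 cells of 35, were above those among the other cells. In CPM, PTCH1 was at 24.3 and 12.1 in blood cells of somite HH15 and HH20, from 2 and 4 cells with a UMI. In nasal blood cells it was at 0, 7.47 and 1.70 CPM. SHH was at 12.2 CPM in blood cells of somite HH15. Levels near these values are thus not clear of background. In the somite libraries, PTCH1 in FABP7 and PAX3 cells below and SHH in FABP7 cells of HH15 are such levels. In the nasal libraries, PTCH1 in FABP7 cells and in PAX3 cells (a mean of 5.30 CPM) is near the 7.47 CPM of HH18 blood cells. Blood cells were deeper, with a median of 4688 to 12023 UMIs against 2220 to 3313 UMIs. A single SHH or PTCH1 UMI in a cell is thus no proof of expression, and shares are given beside levels, counts per cell and companion genes.

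In the somite series, the earliest library stood above the next for 3 members by more than counting error. PTCH1 had an interval of 26.5 to 33.02 CPM at HH12 and of 16.2 to 22.2 CPM at HH15. GLI1 had an interval of 8.53 to 12.4 CPM at HH12 and of 3.22 to 6.24 CPM at HH15, and GLI2 of 31.1 to 38.1 and 17.7 to 24.0 CPM. In the nasal series, GLI3 was lower at HH15, with 59.6 to 70.6 CPM, than at HH18, with 82.0 to 91.6 CPM. GLI2 was lower at HH15 (21.1 CPM, 177 UMIs) than at HH18 (28.7 CPM, 422 UMIs) as well. GLI1 was higher at HH22 (6.05 CPM, 31 UMIs) than at HH18 (2.59 CPM, 38 UMIs). The intervals of both pairs did not overlap. SHH was higher at nasal HH15, with 18.2 to 24.5 CPM, than at HH18, with 13.3 to 17.4 CPM. These are differences between single libraries that also differ in their cell mixture.

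**Figure D1:**
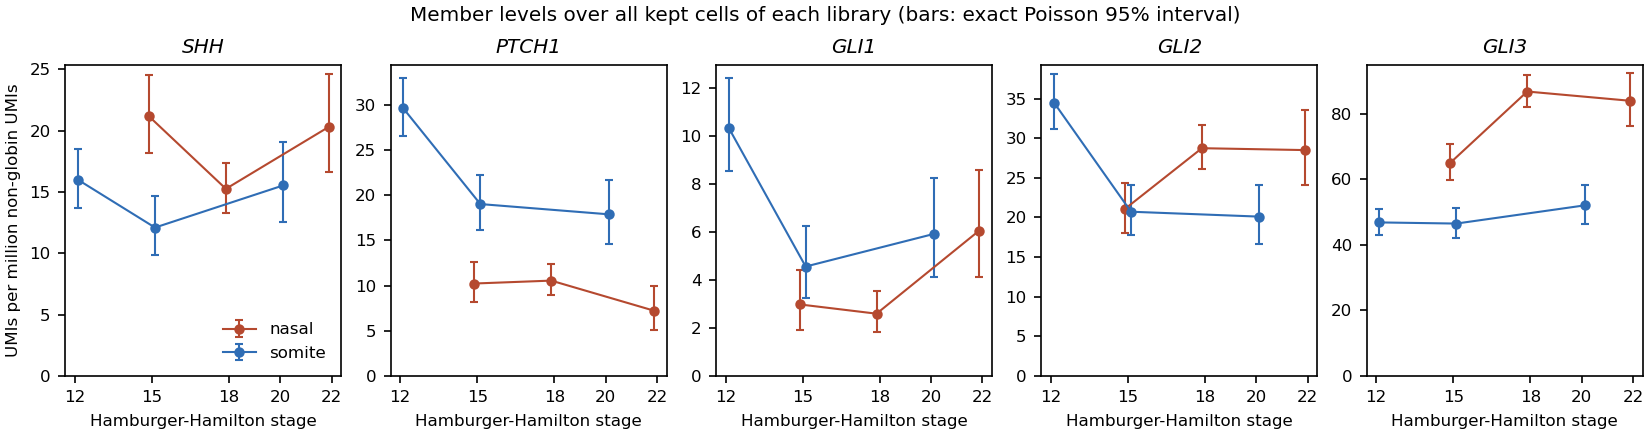
Level of each member (CPM of non-globin UMIs) over all kept cells against Hamburger-Hamilton stage, nasal in red and somite in blue, 1 library per point with its exact Poisson 95% interval. PTCH1 lies at 17.9 CPM or more in the somite and at 10.6 CPM or less in the nasal libraries, while GLI3 lies at 65.0 CPM or more in the nasal and at 52.0 CPM or less in the somite libraries.

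Cells were then sorted by 5 genes that mark the tissues in the dissections, a cell being taken when it had a UMI of that gene and none of the other 4. NKX3-2 marks sclerotome, PAX3 dermomyotome, dorsal neural tube and neural crest, ALX4 frontonasal mesenchyme, FABP7 neural progenitors and EPCAM epithelium. NKX3-2 cells numbered 225, 101 and 48 in the somite libraries, and 0, 2 and 0 in the nasal ones, where they were not used. FABP7 cells were the largest group, with 1039, 1689 and 410 nasal and 934, 1303 and 909 somite cells. ALX4 cells numbered 518, 761 and 190 in the nasal and 23, 37 and 12 in the somite libraries. EPCAM cells were few, 27, 27 and 10 nasal and 78, 34 and 16 somite cells. A further 1650 nasal and 2697 somite cells had no UMI of any of the 5 genes and are called ungated. Cells with FABP7 and PAX3 alone form a separate group. Cells with other combinations, 517, 1126 and 282 nasal and 482, 235 and 126 somite cells, are in none of the groups.

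Other markers bore out the labels in part. PAX1 reached 105 to 171 CPM in somite NKX3-2 cells, ALX1 132 to 240 CPM in nasal ALX4 cells, and KRT18 247 CPM and TP63 121 CPM on average in nasal EPCAM cells. Somite PAX3 cells were a mixture of somite cells, with TCF15 at 180 to 752 CPM, and cells with the neural crest gene SOX10 at 12.8 to 313 CPM, so they are named by PAX3 alone. Somite EPCAM cells also held the somite gene TCF15 at 133 to 472 CPM, and ESRP1, an epithelial splicing factor, had no UMI in nasal EPCAM cells. FABP7 is a weak gate, because a FABP7 UMI was also found in 23.1% to 56.9% of blood cells in the 5 libraries with more than 1 blood cell, against 50.4% to 62.3% of the other cells of those libraries. The FABP7 level of blood cells was 86.4 to 263 CPM, against 677 to 1290 CPM in the other cells of those libraries.

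Most of the ligand in the face lay in FABP7 cells. Of all SHH UMIs, FABP7 cells held 75.3%, 82.6% and 74.0% in nasal HH15, HH18 and HH22 and 45.5%, 45.5% and 84.8% in somite HH12, HH15 and HH20. These cells were 38.7%, 37.8% and 30.3% of the nasal and 31.0%, 43.4% and 51.1% of the somite cells, so that at somite HH15 their share of SHH UMIs was close to their share of cells. Their SHH level was 37.7, 33.4 and 47.8 CPM in the nasal and 21.0, 11.7 and 24.8 CPM in the somite libraries, at somite HH15 below the 12.1 CPM of all kept cells. Nasal FABP7 cells had the highest mean SHH level of the 13 groups of cells, 39.6 ± 7.43 CPM (SD, n = 3 libraries). Somite EPCAM cells came next with 33.1 ± 10.9 CPM (SD, n = 3), from 9, 4 and 1 UMIs. Somite FABP7 cells were in the third place, and ungated cells followed, at 26.7, 3.41 and 19.3 CPM in the nasal and 17.2, 13.7 and 5.77 CPM in the somite libraries.

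Within these exclusive gates, nasal ALX4 cells, somite NKX3-2 cells and PAX3 cells of both locations held almost no SHH UMIs. Nasal ALX4 cells held 2, 1 and 0 SHH UMIs in 518, 761 and 190 cells, and somite NKX3-2 cells held 0, 1 and 1 UMIs in 225, 101 and 48 cells. No SHH UMI was found in the 135 nasal PAX3 cells, a count that allows up to 7.06 CPM (3 counts over the group). Somite PAX3 cells held 1 UMI, in HH12.

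The receptor had another order. Somite NKX3-2 cells led with 74.8, 69.0 and 49.0 CPM of PTCH1, from 49, 15 and 7 UMIs, a mean of 64.3 ± 13.5 CPM (SD, n = 3). Every one of these libraries was above the ungated somite cells, the next group, at 38.4, 26.5 and 21.1 CPM. This was the only pair of neighbours in the order of PTCH1 levels whose libraries did not overlap, out of 12 pairs. Nasal EPCAM cells were in the third place with a mean of 24.1 ± 32.8 CPM (SD, n = 3), from 61.4 CPM in HH15, with 6 UMIs, to 11.01 CPM in HH18 and 0 in HH22. Somite FABP7 cells with PAX3 followed at 22.2, 28.6 and 12.1 CPM, somite PAX3 cells at 19.3, 34.8 and 7.20 CPM and somite FABP7 cells at 22.3, 13.2 and 16.8 CPM. Nasal ALX4 cells, the facial mesenchyme, were at 12.2, 17.3 and 9.24 CPM and nasal FABP7 cells at 7.88, 8.48 and 8.70 CPM.

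GLI1, the transcriptional readout, was also highest in somite NKX3-2 cells, at 18.3, 13.8 and 14.0 CPM from 12, 3 and 2 UMIs. Nasal ALX4 cells were at 1.52, 6.06 and 10.8 CPM, and no library of this group reached the lowest NKX3-2 value. GLI2 was highest in nasal PAX3 cells, at 52.0, 45.4 and 40.8 CPM, and spread widely in somite PAX3 cells, at 57.8, 11.6 and 7.20 CPM. GLI3 was highest in nasal PAX3 cells at 86.6, 109 and 116 CPM, next in nasal FABP7 cells with PAX3 at 97.4, 112 and 87.7 CPM and then in somite PAX3 cells at 109, 92.8 and 93.7 CPM. GLI3 was lowest in EPCAM cells of both locations. Nasal EPCAM cells were at 41.0, 22.01 and 24.5 CPM, a mean of 29.2 CPM from 7 UMIs. Somite EPCAM cells had a mean of 29.5 CPM from 16 UMIs, with libraries from 0 to 44.6 CPM. None of the 12 neighbouring pairs in the order of SHH, GLI1, GLI2 or GLI3 levels was separated beyond the spread of its libraries.

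**Figure D2:**
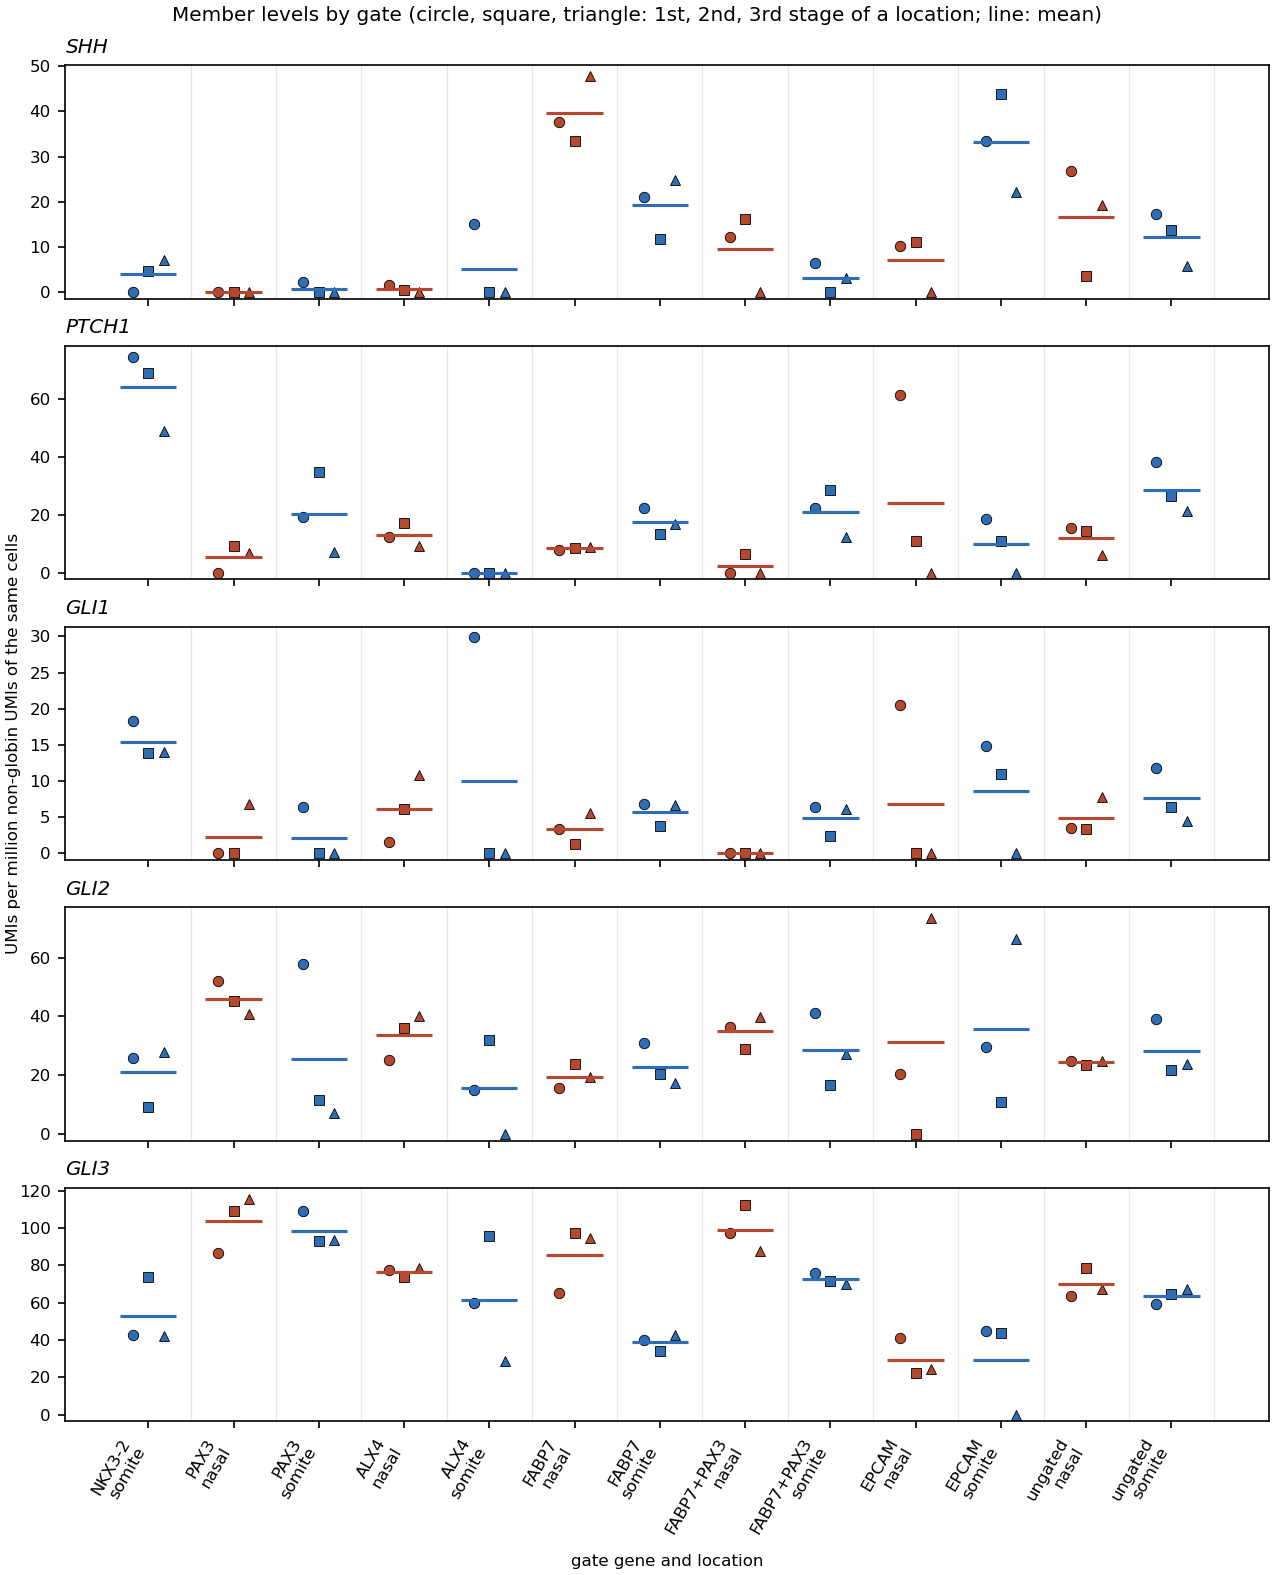
Level of each member (CPM of non-globin UMIs) in the 13 groups of cells defined by location and gate, with circle, square and triangle for the earliest, middle and latest stage and a line for the mean. SHH is highest in nasal FABP7 cells (39.6 CPM on average), PTCH1 and GLI1 in somite NKX3-2 cells (64.3 and 15.4 CPM) and GLI2 and GLI3 in nasal PAX3 cells (46.1 and 104 CPM).

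Sclerotome-like and PAX3 cells of the trunk were compared first, since a hedgehog response is known from the former. PTCH1 rose in NKX3-2 cells relative to PAX3 cells by 1.80 on the log2 scale (SE 0.41, 95% interval 0.99 to 2.61, adjusted p = 0.00343 by edgeR's quasi-likelihood test), and was higher in 3 of 3 libraries. It was the 1 member called of 4 tested, where 2.44% of 7144 genes were called, 1.58% higher and 0.854% lower. GLI1 was higher in 3 of 3 libraries with a log2 fold change of 2.12 that did not pass the test (SE 0.92, edgeR adjusted p = 0.37). GLI3 went the opposite way in 3 of 3 libraries, at 42.7, 73.6 and 42.0 CPM in NKX3-2 against 109, 92.8 and 93.7 CPM in PAX3 cells. The groups did not overlap, but its log2 fold change of -0.92 did not pass the test (SE 0.30, edgeR adjusted p = 0.108). GLI2 gave -0.60 (SE 0.48), and SHH was too rare to test. The PTCH1 call was lost when somite HH12, the library with most NKX3-2 cells, was left out (1.44, edgeR adjusted p = 0.37), and with DESeq2, a gate of 2 UMIs or cells thinned to 2000 UMIs.

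The genes that accompanied PTCH1 were those of sclerotome. PAX1 was at 149 against 5.05 CPM and PAX9 at 63.5 against 2.65 CPM, both regulators of sclerotome and both called. NKX3-2 itself marks sclerotome, so that their rise is partly set by the gate. The neural crest genes SOX10, at 4.38 against 212 CPM, and EDNRB were lower, and so was MSX1, a dorsal transcription factor. How far the crest cells among PAX3 cells set the difference in members was not tested. Of 9 other pathway genes tested, none rose and 2 fell, both co-receptors that bind SHH. BOC fell by 2.01 (SE 0.45, edgeR adjusted p = 0.00277), from 58.2 to 20.1 CPM. CDON fell by 1.39 (SE 0.36, edgeR adjusted p = 0.0154), from 83.0 to 24.2 CPM. The median log2 fold change was -0.12 over the 9 pathway genes and 0.02 over all genes tested.

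Facial and trunk mesenchyme were set side by side through nasal ALX4 and somite NKX3-2 cells. PTCH1 was lower in nasal ALX4 cells by a log2 fold change of -2.31 (SE 0.32, 95% interval -2.94 to -1.69, edgeR adjusted p = 0.00104), with no overlap between the 12.2, 17.3 and 9.24 CPM of the nasal and the 74.8, 69.0 and 49.0 CPM of the somite libraries. This was the 1 member called of 4 tested, where 2.93% of 8843 genes were called, 1.07% higher and 1.85% lower in nasal cells. The call held under all 14 alternatives run, including the omission of each library, with edgeR adjusted p up to 0.0368. GLI1 was lower without overlap and did not pass the test, with a log2 fold change of -1.58 (SE 0.64, edgeR adjusted p = 0.29). GLI2 gave 0.55 (SE 0.39) and GLI3 0.55 (SE 0.26), neither past the test. Among the targets, PAX1 and PAX9 were called lower and CCND1, a cell cycle gene, was called higher in nasal ALX4 cells. The values of PAX1 and PAX9 are partly set by the NKX3-2 gate, which marks sclerotome. Stages differ between the locations, so that location and stage are partly mixed in this comparison.

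FABP7 cells of the face, taken with or without an SHH UMI, were compared with the ALX4 mesenchyme of the same libraries. SHH was at 37.7, 33.4 and 47.8 CPM against 1.52, 0.466 and 0 CPM, without overlap. The pooled counts were 396 against 3 UMIs, a ratio of 50.6 with a counting interval of 17.2 to 246. Cells with both FABP7 and ALX4 belong to neither group, so the ratio holds for the exclusive gates only. The log2 fold change was 5.99 (SE 0.43, edgeR adjusted p = 5.43e-10) and SHH was called under all 12 alternatives. In this comparison 46.2% of 10075 genes were called, 26.6% higher and 19.6% lower, so that the 2 members called of 5 tested are near the share of all genes. The second was GLI3, with a log2 fold change of 0.56 (SE 0.20, edgeR adjusted p = 0.0235). Its levels were 65.3, 97.6 and 94.4 CPM in FABP7 and 77.6, 73.7 and 78.6 CPM in ALX4 cells, higher in 2 of 3 libraries only, and the call was lost without nasal HH18 (0.37, edgeR adjusted p = 0.47), with DESeq2 and with thinned cells. PTCH1 gave -0.29 (SE 0.30), GLI1 -0.58 (SE 0.53) and GLI2 -0.31 (SE 0.22), none past the test.

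Pathway genes fell in FABP7 cells relative to ALX4 cells for 4 of 12 tested and rose for none, where 19.6% of all genes fell. CDON, a co-receptor, fell by 1.45 (SE 0.21, edgeR adjusted p = 1.34e-05), and SMO, the transducer, fell by 0.59 (SE 0.21, edgeR adjusted p = 0.0235). The kinases GSK3B and PRKACB, which mark GLI proteins for processing, were the other members called. Of 10 targets tested, 4 rose and 1 fell, near the 46.2% of all genes called. NKX2-1, a factor of the ventral forebrain, was at 38.4 against 1.39 CPM and OLIG2 at 3.70 against 0.155 CPM. CCND1 also rose, FOXF1 fell, and NKX2-2 was at 2.81 CPM with no UMI in ALX4 cells. FABP7 cells also held more of other cell types, with 4 of 4 epithelial genes tested called higher (KRT19 at 93.2 against 22.4 CPM) and 3 of 4 endothelial genes (LMO2 at 12.1 against 4.56 CPM). Their part in the SHH value was not tested. Globin genes were called higher as well, and with blood cells left out no member changed its call.

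Location was compared within FABP7 cells. GLI3 was at 65.3, 97.6 and 94.4 CPM in nasal and 40.0, 34.2 and 42.9 CPM in somite FABP7 cells, with no overlap. It rose by 1.24 on the log2 scale in nasal cells (SE 0.23, 95% interval 0.79 to 1.70, edgeR adjusted p = 0.0438), 1 member called of 5 tested where 0.932% of 10726 genes were called, 0.261% higher and 0.671% lower. The call held when nasal HH22 was left out (edgeR adjusted p = 0.0466) and was lost without any one of the other 5 libraries (log2 fold changes of 1.12 to 1.33). It was also lost with cells thinned to 2000 UMIs, and held under 8 of the 14 alternatives run. SHH was higher without overlap as well, with a log2 fold change of 1.16 that did not pass the test (SE 0.28, edgeR adjusted p = 0.129), and PTCH1 was lower without overlap, at -0.93 (SE 0.26, edgeR adjusted p = 0.21). GLI1 gave -0.77 (SE 0.52) and GLI2 -0.09 (SE 0.28). Among targets, NKX2-1 was higher in nasal cells (38.4 against 0.617 CPM), while PAX1 and the ventral neural tube genes NKX6-1 and NKX6-2 were lower, 4 of 14 tested. None of 15 pathway genes was called.

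SHH was lower in trunk FABP7 cells with PAX3 than in those without it. FABP7 cells with PAX3 numbered 70, 117 and 77 and held 2, 0 and 1 SHH UMIs (6.34, 0 and 3.04 CPM), against 81, 46 and 78 UMIs (21.0, 11.7 and 24.8 CPM) in FABP7 cells without PAX3. The pooled ratio was 6.64 in favour of the latter, with a counting interval of 2.24 to 32.5. The log2 fold change of SHH was -2.83 (SE 0.64, edgeR adjusted p = 0.00169), lower in 3 of 3 libraries, 1 member called of 5 tested where 2.01% of 10067 genes were called, 0.616% higher and 1.39% lower. Because 3 UMIs carry this value, it was sensitive: the call was lost without somite HH15 (-2.37, edgeR adjusted p = 0.0620), with DESeq2, with thinned cells (-1.18) and with FABP7 counted from 4 UMIs. GLI3 was higher in 3 of 3 libraries, at 76.0, 71.6 and 69.8 CPM against 40.0, 34.2 and 42.9 CPM without overlap, but did not pass the test (0.74, SE 0.26, edgeR adjusted p = 0.109). PTCH1 gave 0.17 (SE 0.38), GLI1 -0.39 (SE 0.78) and GLI2 0.12 (SE 0.35). NKX6-1, a ventral progenitor gene, fell with SHH by 3.24 (SE 0.74, edgeR adjusted p = 0.00194), 1 of 13 targets tested, and the crest and dorsal genes EDNRB, MSX1 and SOX10 rose. Genes of other cell types were lower beside SHH, the blood genes HBBR and SLC4A1 (71.5 to 4.84 CPM), the neuronal factor MYT1, the epithelial genes KRT18 (183 to 43.4 CPM), KRT19 and TP63 and the lateral plate genes HAND1 and HAND2, and their part in the SHH value was not tested. With blood cells left out the log2 fold change of SHH was -2.84. None of 14 pathway genes was called.

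Epithelium was compared in the face. GLI3 was lower in nasal EPCAM than in ALX4 cells of every library, at 41.0, 22.01 and 24.5 against 77.6, 73.7 and 78.6 CPM, without overlap. The EPCAM values rest on 7 UMIs in 64 cells. The log2 fold change of GLI3, -1.45, did not pass the test (SE 0.57, edgeR adjusted p = 0.0689). Over all genes tested the median log2 fold change was -0.63, so that a typical gene was lower as well. None of 4 members tested was called where 13.5% of 8483 genes were, 4.01% higher and 9.48% lower. Counting FABP7 from 4 UMIs, which adds cells to both gates, gave -1.44 with an edgeR adjusted p of 2.88e-05. PTCH1 gave 0.98 (SE 0.82) and GLI2 -0.67 (SE 0.76). CDON was called lower and BMP4, a signal of facial ectoderm, higher. Across locations, EPCAM cells held 2 nasal against 14 somite SHH UMIs, and the somite to nasal ratio of 3.96 had a counting interval of 0.909 to 35.9. SHH was at 10.2, 11.01 and 0 CPM in nasal and 33.4, 43.9 and 22.1 CPM in somite EPCAM cells, without overlap and without a call (log2 fold change -1.87, SE 1.01, edgeR adjusted p = 0.35). GLI3 gave -0.27 (SE 0.79) between EPCAM cells of both locations.

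**Figure D3:**
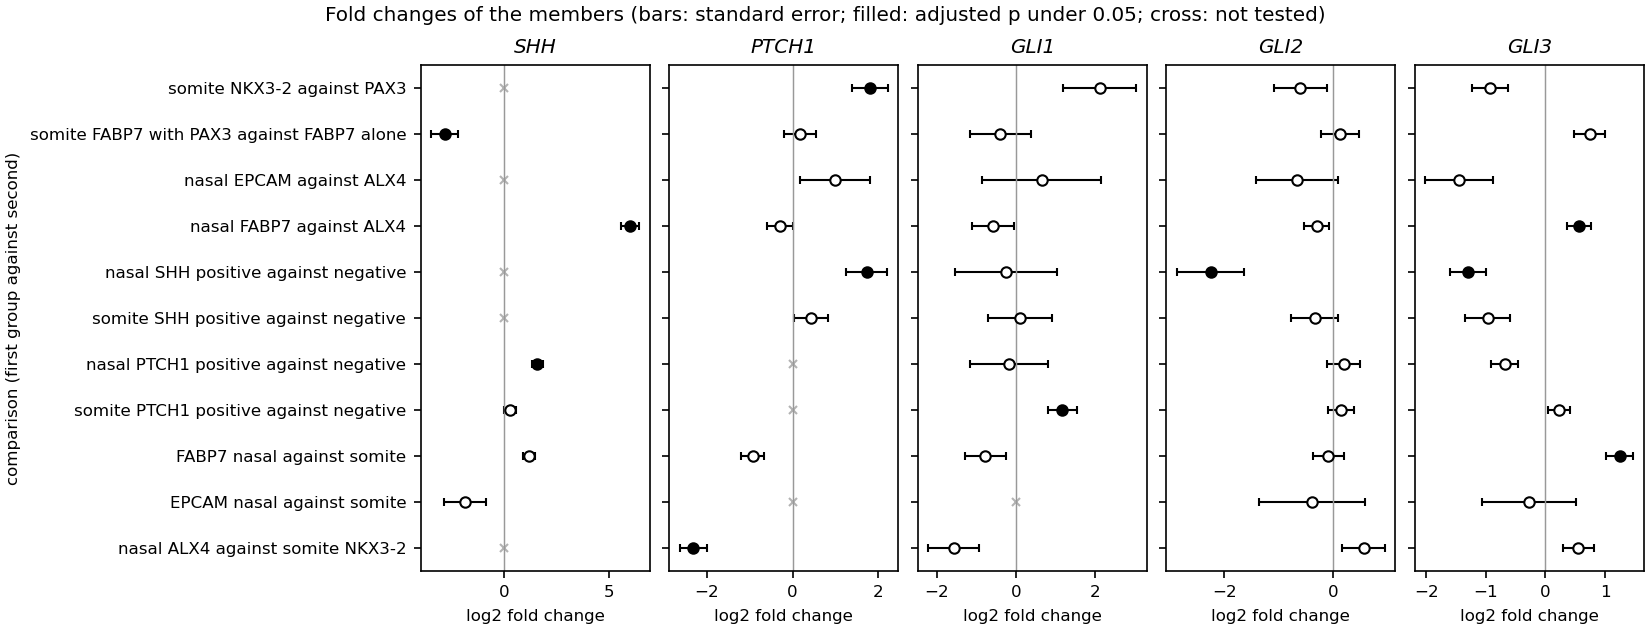
Log2 fold change of the 5 members in the 11 comparisons, bars showing the SE, filled points an adjusted p under 0.05 in edgeR's quasi-likelihood test and a cross at 0 a member not tested. PTCH1 is lower in nasal ALX4 than in somite NKX3-2 cells (-2.31), SHH is higher in nasal FABP7 than in ALX4 cells (5.99), and GLI3 is higher in nasal than in somite FABP7 cells (1.24).

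Cells with an SHH UMI were then described directly, 71, 95 and 28 nasal and 79, 44 and 35 somite cells, called SHH cells although a single UMI can be free RNA. In the face, their leading gene was NKX2-1, the ventral forebrain and hypothalamic factor, at 169 CPM against 12.9 CPM in cells without SHH, a log2 fold change of 3.59 (SE 0.25, edgeR adjusted p = 2.73e-43). SPON1, a secreted floor plate protein, was at 107 against 10.9 CPM, a log2 fold change of 3.13 (SE 0.32). Frontonasal mesenchyme genes were lower for 7 of 7 tested, among them SIX2 at 22.9 against 97.0 CPM, ALX1 at 28.5 against 120 CPM and PRRX1 at 32.6 against 124 CPM. Genes of neural progenitors (3 of 5), neurons (3 of 4) and forebrain (3 of 5) were called higher. Globin genes were called lower, and with blood cells left out no member changed its call.

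Nasal SHH cells differed from the rest in 3 of the 4 other members, where 4.45% of 10984 genes were called, 1.43% higher and 3.02% lower. PTCH1 was at 57.4, 21.3 and 10.1 CPM in SHH cells, from 14, 7 and 1 UMIs, against 8.82, 10.3 and 7.17 CPM. It rose by 1.72 (SE 0.49, edgeR adjusted p = 0.0139) in 3 of 3 libraries, but the groups overlapped and the call was lost without nasal HH15 (0.86, edgeR adjusted p = 0.89) and without nasal HH18 (2.17, edgeR adjusted p = 0.11), with a gate of 2 UMIs (1.76, edgeR adjusted p = 0.17) and with thinned cells (0.36, edgeR adjusted p = 0.91). GLI3 was at 28.7, 36.4 and 40.2 CPM against 66.0, 87.9 and 84.8 CPM, without overlap, and fell by 1.30 (SE 0.30, edgeR adjusted p = 0.000910), a call lost without nasal HH18 (-1.26, edgeR adjusted p = 0.16). GLI2 was at 0, 12.1 and 0 CPM against 21.7, 29.1 and 29.1 CPM, without overlap, and fell by 2.25 (SE 0.62, edgeR adjusted p = 0.0100), a call lost without nasal HH15 (-1.76, edgeR adjusted p = 0.26), with a gate of 2 UMIs (-2.25, edgeR adjusted p = 0.15) and with thinned cells (-2.00, edgeR adjusted p = 0.37). GLI1 gave -0.25 (SE 1.28). CDON, at 12.8 against 44.5 CPM, was the 1 pathway gene of 14 called, lower by a log2 fold change of -1.79 (SE 0.42, edgeR adjusted p = 0.00150). NKX2-1 was the 1 target of 10 called.

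Trunk SHH cells had another set of companions. TF, the transferrin gene, was at 388 against 8.70 CPM, and the peptide genes TAC1 and SST were at 111 against 3.67 and 112 against 2.97 CPM. The 3 notochord genes tested were called higher, TBXT at 60.5 against 3.54 CPM, CHRD at 40.9 against 1.26 CPM and FOXA2 at 14.7 against 0.596 CPM. CHRD was higher in 1 of 3 libraries, since its 47 UMIs lay in 7 SHH cells of HH12 with none at HH15 or HH20. TBXT was in 15, 1 and 2 SHH cells of HH12, HH15 and HH20, and FOXA2 in 1, 4 and 2. FOXA1, a factor of endoderm, was at 49.6 against 0.760 CPM, and SPON1 at 113 against 38.8 CPM. Of the other endoderm genes, FOXA2 was higher as given, while HHEX and CLDN18 were in 0 and SOX17 in 1 of 158 SHH cells. Targets rose for 4 of 14 tested, FOXA2, NKX2-2 at 26.0 against 2.84 CPM, NKX6-1 at 47.5 against 11.1 CPM and NKX6-2 at 41.8 against 6.91 CPM, and none fell. The globin genes HBA1 and HBBA were also higher, and with blood cells left out no member changed its call. None of the 4 other members was called, where 1.39% of 11138 genes were, 0.889% higher and 0.503% lower. GLI3 was lower in 3 of 3 libraries without overlap, at 31.3, 13.2 and 22.6 CPM against 47.4, 47.1 and 52.7 CPM, and did not pass the test (-0.96, SE 0.38, edgeR adjusted p = 0.30). PTCH1 gave 0.42 (SE 0.40), with 95% bounds of -0.36 and 1.20. None of 15 pathway genes was called.

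Cells with several SHH UMIs carried more of the regional genes and less of the mesenchymal ones. Of the 108 nasal cells with 1 SHH UMI, 56.5% were FABP7 cells, against 87.5% of the 56 cells with 3 or more. The pooled NKX2-1 level was 127, 174 and 250 CPM in nasal cells with 1, 2 and 3 or more SHH UMIs. SIX3, a forebrain factor, was at 21.1, 69.8 and 192 CPM and SPON1 at 47.5, 81.4 and 206 CPM over the same classes, while ALX4 was at 79.2, 34.9 and 0 CPM. In the trunk, TBXT was at 28.8, 176 and 217 CPM, FOXA1 at 19.9, 73.1 and 142 CPM and SPON1 at 37.6, 43.9 and 285 CPM in the 102, 17 and 39 cells of the 3 classes. The somite gene TCF15 was at 213, 43.9 and 61.1 CPM. PTCH1 had no such course in the face, at 29.1, 46.5 and 33.6 CPM. These classes are cut from the SHH count itself and hold different libraries in different shares, so that they are described without a test.

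SHH cells of face and trunk were counted with different regional genes. An NKX2-1 UMI was in 30.9% of nasal SHH cells, against 2.42% to 3.10% of nasal cells without SHH, and in 1 of 158 somite SHH cells. SIX3 was in 19.1% of nasal SHH cells, against 2.87% to 5.04% of the rest, and in 0 of 158 somite SHH cells, which allows up to 1.90% of cells with a UMI. In the other direction, TBXT was in 11.4% of somite SHH cells, against 0.642% to 1.98% of the rest, FOXA1 in 10.1%, against 0.115% to 0.236%, and NKX6-1 in 13.3%, against 1.66% to 4.93%. TBXT, NKX6-1 and FOXA2 were in 0 of 194 nasal SHH cells, which allows up to 1.55% of cells with a UMI. These bounds limit cells with a UMI and not cells that express the gene. SPON1 was found in both, in 19.1% of nasal and 22.8% of somite SHH cells.

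**Figure D4:**
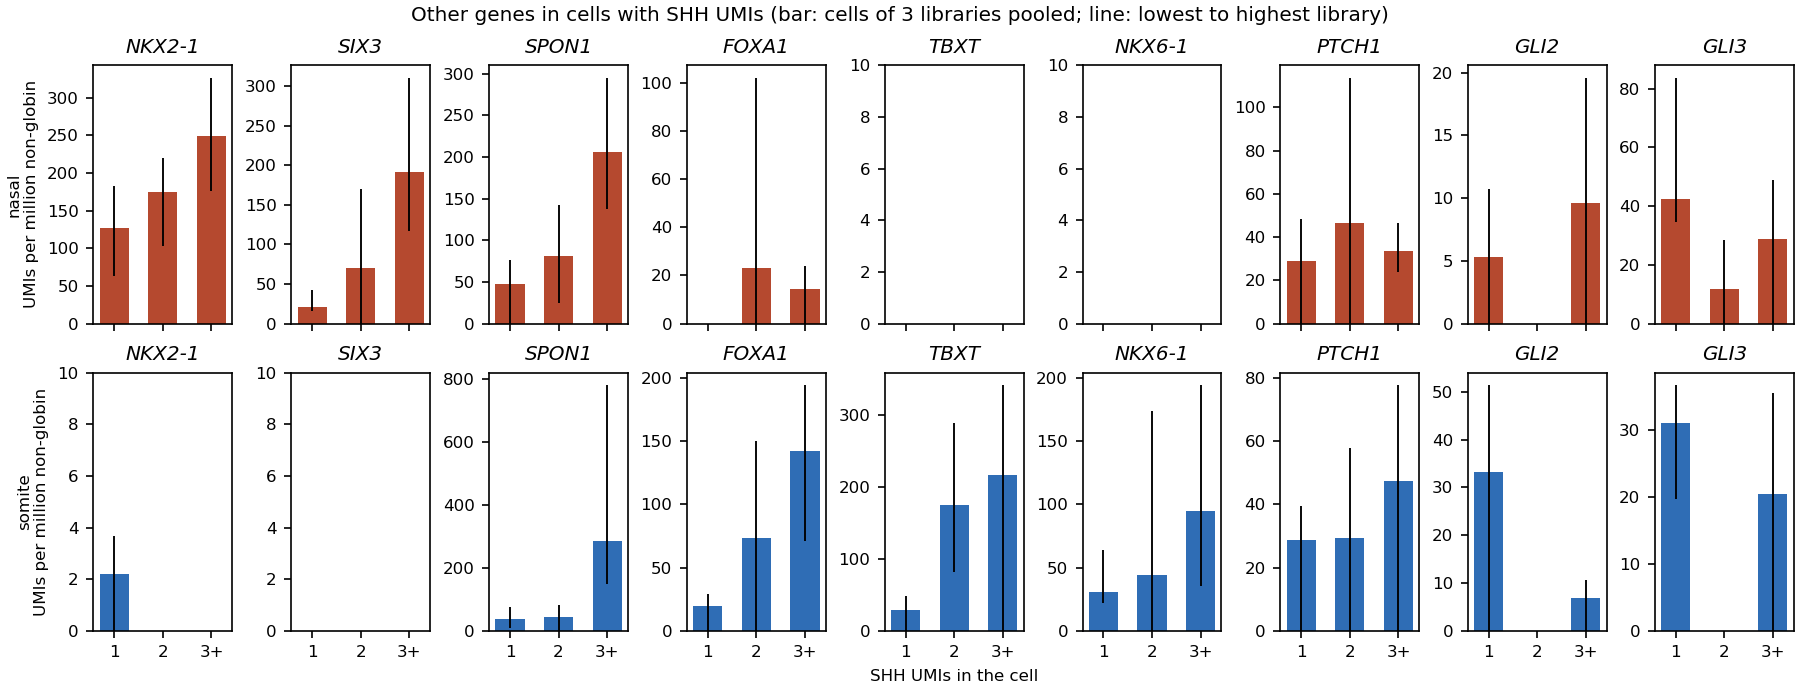
Pooled level (CPM of non-globin UMIs) of regional genes and members in cells with 1, 2 and 3 or more SHH UMIs, nasal cells in the top and somite cells in the bottom row, with a line from the lowest to the highest library. Nasal SHH cells carry NKX2-1 (127, 174 and 250 CPM), and somite SHH cells carry TBXT (28.8, 176 and 217 CPM).

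The cells that carry the receptor were described in the same way, 76, 148 and 35 nasal and 266, 135 and 99 somite cells with a PTCH1 UMI. In the trunk they carried more transcripts of known hedgehog targets. Of 14 targets tested 7 rose and 1 fell, with a median log2 fold change of 1.40 over the list and -0.07 over all genes tested. HHIP, a decoy receptor switched on by the pathway, was at 11.5 against 2.16 CPM, a log2 fold change of 2.33 (SE 0.52, edgeR adjusted p = 0.000530). OLIG2, of motor neuron progenitors, was at 24.99 against 5.90 CPM and PAX1 at 46.2 against 17.4 CPM. NKX6-1 was at 35.6 against 10.2 CPM, NKX6-2 at 25.5 against 6.44 CPM, NKX2-2 at 9.46 against 2.87 CPM and FOXF1 at 6.90 against 2.11 CPM. BMP4 was lower, at 4.12 against 12.1 CPM. NKX2-2 was higher in 2 of 3 libraries and the other 6 in 3 of 3. The leading genes by size were ACKR3, SOX2 and FAT4, and PRRX1, ANXA2 and FABP3 were lower.

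Among the other members, GLI1 rose in somite PTCH1 cells, at 16.9, 12.2 and 24.0 CPM against 9.59, 4.15 and 4.83 CPM, without overlap. Its log2 fold change was 1.17 (SE 0.36, edgeR adjusted p = 0.0225), 1 member called of 4 tested where 7.46% of 11138 genes were called, 1.65% higher and 5.81% lower. The call rested on all 3 libraries, since leaving out HH12, HH15 or HH20 gave edgeR adjusted p of 0.0639, 0.0955 and 0.177. It was also lost with cells thinned to 2000 UMIs (1.16, edgeR adjusted p = 0.51) and with a gate of 2 UMIs, where the log2 fold change was 0.14 (edgeR adjusted p = 0.99). GLI3 was at 52.5, 78.4 and 60.1 CPM against 46.2, 44.8 and 51.5 CPM, higher in 3 of 3 libraries without overlap, and did not pass the test (0.23, SE 0.18, edgeR adjusted p = 0.54). SHH gave 0.29 (SE 0.29) and GLI2 0.14 (SE 0.23). HHIP was the 1 pathway gene called of 15.

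Nasal PTCH1 cells differed. SHH was at 142, 24.99 and 21.9 CPM in PTCH1 cells against 17.4, 14.9 and 20.3 CPM, without overlap, and rose by 1.58 (SE 0.28, edgeR adjusted p = 1.38e-05), 1 member called of 4 tested where 3.09% of 10984 genes were called, 0.328% higher and 2.76% lower. The value came from nasal HH15, where 36 UMIs lay in 11 cells, against 13 UMIs in 7 cells at HH18 and 3 UMIs in 1 cell at HH22. These are the same cells that held PTCH1 among the nasal SHH cells above. The call of SHH here and that of PTCH1 there are thus 1 observation seen from both sides. Without nasal HH15 the log2 fold change was 0.41 (edgeR adjusted p = 0.97), and with cells thinned to 2000 UMIs it was -0.14 (edgeR adjusted p = 0.97). GLI3 was at 35.5, 73.0 and 51.2 CPM against 65.9, 87.2 and 84.8 CPM, lower in 3 of 3 libraries with overlap between the groups, and did not pass the test (-0.68, SE 0.22, edgeR adjusted p = 0.0602). None of 10 targets or 14 pathway genes was called, NKX2-1 being at 44.3 against 15.7 CPM (1.02, SE 0.32, edgeR adjusted p = 0.0519). MYT1 and FGFR3 led the genes that rose. Globin genes were lower in nasal PTCH1 cells, and with blood cells left out no member changed its call.

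Members were seldom counted in the same cell. After thinning cells of 2000 or more UMIs to 2000, PTCH1 was in 4 of 116 nasal and 5 of 82 somite SHH cells. GLI3 was in 3 nasal and 3 somite SHH cells, a smaller share than among the rest in each of the 6 libraries. An ALX4 UMI was in 4 of 116 nasal SHH cells and a FABP7 UMI in 97 of 116. NKX3-2 was in 37 of 250 somite PTCH1 cells, 8.70% to 19.8% by library against 2.42% to 9.30% of the rest, a larger share in 3 of 3 libraries. ALX4 was in 56 of 144 nasal PTCH1 cells, 33.3% to 42.1% against 20.9% to 30.1%, again in 3 of 3 libraries. GLI1 was in 9 of 250 somite PTCH1 cells, 3.05% to 4.35% against 0.648% to 2.08%. GLI2 and GLI3 were found together in 72 nasal and 35 somite cells, and PAX3 was in 84 of 954 nasal and 51 of 567 somite GLI3 cells, in every library a larger share than among the rest.

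Across 36 sums of libraries and gates, 17 nasal and 19 somite, the levels of PTCH1 and GLI1 had a Pearson r of 0.50 and those of GLI2 and GLI3 of 0.52, while SHH and GLI3 had an r of -0.41. Among 4354 genes with a mean of 20 CPM or more, those most like PTCH1 were SPON1 (r = 0.78), RGMA (0.78) and TAB3 (0.76). GLI3 was most like SLC6A15 (0.73), NAP1L1 (0.72) and FBN2 (0.71), and GLI2 most like NCAPD2 (0.88), TYW3 (0.84) and ATL2 (0.83). SHH was most like TXNDC9 (0.67), EIF3I (0.64) and TESC (0.62), and GLI1 most like PCSK5 (0.72), PTRHD1 (0.71) and RPL30 (0.64). Sums of the same library share embryos and depth, and the small sums hold few UMIs of each member, so these values are a description only.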

How the data were processed

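Single cells were captured with 10x Genomics 3' chemistry, and the authors made UMI counts per gene and barcode with Cell Ranger on GRCg6a with an annotation of elongated 3' UTRs. The deposited counts are whole numbers without normalization. Following the study's filters, barcodes were dropped when their UMI total exceeded 4 times the library mean or fell below 0.2 of its median, or when a mitochondrial share over 0.1 lay more than 3 median absolute deviations up without a UMI total above the median (537 barcodes, with the genes per UMI filter at 0.15). The 425 cells with the highest Scrublet scores (scanpy 1.11.5) were removed, at 0.008 for each 1000 cells. The non-globin total was chosen after the data were seen. Blood cells are those with 10% or more globin UMIs.

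UMI counts were summed per library and gate, in groups of 10 or more cells, and tested in edgeR 4.0.16 (quasi-likelihood test, TMM, genes with 15 or more UMIs in all, prior count 0.125, Benjamini-Hochberg adjustment over all genes tested, called under 0.05). TMM scaling means that a log2 fold change can differ from the ratio of CPM. An SE is the log2 fold change over the root of F. Fits inside 1 location included a library term as the replicate block, because each library gave both sums, and the deviations of paired sums correlated at 0.12 to 0.894 over 24 pairs. Genes that set a gate were not tested. On simulated sums the test recovered 98% of genes changed 4-fold for NKX3-2 against PAX3, 96% for FABP7 with PAX3, 76% for somite SHH cells and 97% for ALX4 against NKX3-2, with 6 to 9 false calls. The changed genes were drawn from genes with many UMIs, at a fixed dispersion and without library effects. These shares thus do not cover sparse genes such as GLI1. Alternatives were DESeq2 1.42.0, its size factors, no low-count filter, a gate of 2 UMIs, cells thinned to 2000 UMIs, no block, doublets kept and each library left out, and, added after the data were seen, FABP7 from 4 UMIs, blood cells left out and globin kept in the total.

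Members, gates and gene lists were chosen with earlier results of these data known. Of the pathway list 19 of 21 genes and of the target list 15 of 16 were found by symbol, and the others were not analysed here. The values of 1 further gene of these lists are not reported here, though the list counts and medians include it. Other genes were named when called with the largest change, at 50 CPM in 1 group and in the same direction in every library, up to 3 per direction. Members, pathway and target genes and markers were named beside them. No sequence or coordinate is given. Separate embryos are not labelled within a library, so that p-values do not measure the spread between embryos.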

Additional observations from a re-analysis of the deposited data

Results flagged for a closer look

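GLI3 in cells with PTCH1 moved in opposite directions in the face and the trunk. It was lower in PTCH1 cells of each of the 3 nasal libraries (35.5, 73.0 and 51.2 CPM against 65.9, 87.2 and 84.8 CPM in cells without PTCH1) and higher in PTCH1 cells of each of the 3 somite libraries (52.5, 78.4 and 60.1 CPM against 46.2, 44.8 and 51.5 CPM). The difference between both log2 fold changes, nasal minus somite, was -0.95 (SE 0.29). It had an unadjusted p of 0.00107 in edgeR's quasi-likelihood test of the interaction and an adjusted p of 0.43 over 12002 genes, of which 10 were called, so it did not pass the correction. The interaction test was added after the data were seen and was also run for the other members. SHH in PTCH1 cells differed by 1.24 (edgeR adjusted p = 0.47), PTCH1 in SHH cells by 1.33 (edgeR adjusted p = 0.68) and GLI2 in SHH cells by -1.89 (edgeR adjusted p = 0.73). GLI1 and GLI2 in PTCH1 cells differed by -1.38 (SE 0.91) and 0.01 (SE 0.38). GLI3 and GLI1 in SHH cells differed by -0.32 (SE 0.52) and -0.33 (SE 1.44), and none of these values was called.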

How the results depend on the processing

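Of the recomputed member values, 468 kept their side of the threshold, 39 lost their call, 6 gained one and 1 called value changed sign, SHH in nasal PTCH1 cells with thinned cells (log2 fold change -0.14). Of the 468, 441 kept their direction and 27, none of them called, changed sign, such as PTCH1 in EPCAM against ALX4 cells (0.98, with a range of -1.002 to 1.90). SHH in nasal FABP7 against ALX4 cells and PTCH1 in nasal ALX4 against somite NKX3-2 cells were called under all alternatives run, and keeping doublets or leaving out blood cells changed no call of a member. Without the replicate block, which ignores that both sums come from 1 library, 8 of 9 calls of members within a location were lost, at adjusted p of 0.0837 (GLI3, nasal FABP7 against ALX4) to 0.845 (SHH, nasal PTCH1 cells). The 9 count PTCH1 in nasal SHH cells and SHH in nasal PTCH1 cells separately, though both rest on the same cells. The 6 values that gained a call were GLI3 in NKX3-2 against PAX3 cells with FABP7 from 4 UMIs (-0.97), in FABP7 cells with PAX3 without somite HH20 (0.86), in EPCAM against ALX4 cells without the block and with FABP7 from 4 UMIs (-1.45 and -1.44) and in nasal PTCH1 cells with DESeq2 size factors (-0.75), and SHH in nasal against somite FABP7 cells with DESeq2 (1.16, adjusted p = 0.0289). DESeq2 gave no adjusted p for 18 member values, 4 of them called by edgeR.

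Counts of genes called moved more. With DESeq2 they were 30 for NKX3-2 against PAX3 (174 by edgeR), 24 for FABP7 with PAX3 against FABP7 alone (202), 481 for EPCAM against ALX4 (1144), 2812 for FABP7 against ALX4 (4658), 230 for nasal SHH (489), 60 for somite SHH (155), 454 for somite PTCH1 (831), 233 for FABP7 by location (100) and 32 for EPCAM by location (84). Thinning gave, in that order, 86, 318, 601, then 264 for nasal SHH, 61 for somite SHH, 175 for nasal PTCH1 (339), 375 for somite PTCH1 and 44 for EPCAM by location, and a PTCH1 level of 79.4 CPM in somite NKX3-2 cells (64.3). Without the block they were 17, 1 and, for FABP7 against ALX4, 2744, then 13 and 12 for nasal and somite SHH and 1 and 1 for nasal and somite PTCH1. A gate of 2 UMIs gave 75, 643 for EPCAM against ALX4 and 66 for somite PTCH1. No low-count filter gave 209 for FABP7 by location and 616 for ALX4 against NKX3-2 (259), DESeq2 size factors gave 517 for nasal PTCH1, and FABP7 from 4 UMIs gave 3567 for EPCAM against ALX4 and 149 for EPCAM by location. With each library left out the counts ran from 106 to 196, 66 to 537, 354 to 899 and 1672 to 5560 in the first 4 comparisons, 154 to 543 and 51 to 142 for nasal and somite SHH, 103 to 153 and 303 to 654 for nasal and somite PTCH1, 38 to 182 and 4 to 79 by location for FABP7 and EPCAM, and 90 to 444 for ALX4 against NKX3-2. The cause was not tested. A gate of 2 UMIs was not run for FABP7 with PAX3, nasal PTCH1 and EPCAM by location, where too few cells remained. Sparse counts limit SHH in mesenchyme and GLI1 throughout.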

Other observations

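Genes of the ventral and dorsal neural tube, which SHH is known to set against each other, were looked at as a pair of lists. In somite SHH cells 4 of 5 ventral genes tested were called higher, with a median log2 fold change of 2.49 over the list against -0.12 over all genes, while none of 8 dorsal genes was called by edgeR (median -0.79), with PAX3 and PAX7 lower at an unadjusted p under 0.05 (2 of 8). In somite PTCH1 cells 4 of 5 ventral genes were called higher (median 2.05, against -0.07 over all genes) and 1 of 8 dorsal genes lower, MSX2 with a log2 fold change of -1.42. In somite FABP7 cells with PAX3, 1 of 4 ventral genes was called lower, NKX6-1, and 2 of 7 dorsal genes higher, MSX1 and PAX7. There 0.616% of all genes were called higher and 1.39% lower. PAX3 itself marks dorsal neural tube, so that a rise of dorsal genes is partly set by the gate. In nasal SHH cells none of 2 ventral genes was called by edgeR, with both under an unadjusted p of 0.05 (log2 fold changes of OLIG2 2.88 and NKX2-2 2.78), and the dorsal genes MSX1 and PAX7, which facial mesenchyme also expresses, were lower (2 of 7 tested). Of all genes tested, 0.889% were called higher and 0.503% lower in somite SHH cells, and 1.65% and 5.81% in somite PTCH1 cells. In nasal SHH cells these shares were 1.43% and 3.02%. The ventral genes called are also on the list of targets, so the list counts repeat part of those given for the targets.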
